A study of Mus musculus with 8 samples.

Results

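Slc38a4, Sfmbt2, Gab1 and Smoc1 are mouse genes that are imprinted without germline DNA methylation. They were followed through every probe set whose single gene symbol was one of the 4 names. That gave 8 probe sets of the 45101 on the array, and 4 of the 18194 genes with a probe set of their own. Slc38a4 and Sfmbt2 had 2 probe sets each, Gab1 had 3 and Smoc1 had 1. All 8 were kept, with no filter on low values. The data were 8 single-colour Affymetrix arrays of total RNA in 3 groups. The first was parthenogenetic stem cells (PSC, 3 arrays) from C57BL/6 oocytes, which strontium chloride had activated without sperm and whose blastocysts were used on day 6, so that both copies of every gene are of maternal origin. The second was embryoid bodies (EB_PSC, 2 arrays) grown from PSC of that strain for 15 days. The third was embryonic stem cells (ESC, 3 arrays) of the R1 line, kept on a mouse embryonic fibroblast (MEF) feeder with LIF. The labels name a strain for PSC and EB_PSC and a feeder for ESC. Parental origin, line and culture therefore cannot be told apart between PSC and ESC. Whether arrays of the same group stand for independent cultures is not stated. Each p-value therefore measures the spread between these arrays, which may be technical.

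Most imprinted genes carry DNA methylation that was set in the egg or the sperm. A smaller group is marked in the oocyte instead by H3K27me3, the histone modification laid down by Polycomb repressive complex PRC2, and in the early embryo the marked maternal copy is silent while the paternal copy is expressed. In the embryo proper this difference is largely lost after implantation, whereas several of these genes keep it in the placenta and other extraembryonic tissues. Slc38a4 encodes an amino acid transporter of the plasma membrane that is abundant in placenta and liver. Sfmbt2 encodes a Polycomb group protein with MBT repeats. Gab1 encodes a docking protein that links receptor tyrosine kinases to Ptpn11 and phosphoinositide 3-kinase. Smoc1 encodes a secreted matricellular protein of the SPARC family that antagonises BMP signalling. The arrays measured total RNA and do not separate the parental copies.

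The promoters of 3 of the 4 genes were in the RefSeq table used (GRCm38.p6), as windows from 250 bases before to 50 bases after each transcript start. They are shown because CG is the dinucleotide that DNA methylation acts on, and they carry it to unequal degrees. CG pairs are in capitals, and CG reads the same on both strands. The most upstream window of each gene is given 5′ to 3′ on the strand of the gene.
Slc38a4 promoter, chr15:97055907-97056206, minus strand: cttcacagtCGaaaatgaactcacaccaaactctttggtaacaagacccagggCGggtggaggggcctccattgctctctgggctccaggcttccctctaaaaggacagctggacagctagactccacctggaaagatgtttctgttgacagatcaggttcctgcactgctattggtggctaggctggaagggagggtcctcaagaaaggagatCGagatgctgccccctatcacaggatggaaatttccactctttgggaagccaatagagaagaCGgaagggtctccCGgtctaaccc
Sfmbt2 promoter, chr2:10370201-10370500, plus strand: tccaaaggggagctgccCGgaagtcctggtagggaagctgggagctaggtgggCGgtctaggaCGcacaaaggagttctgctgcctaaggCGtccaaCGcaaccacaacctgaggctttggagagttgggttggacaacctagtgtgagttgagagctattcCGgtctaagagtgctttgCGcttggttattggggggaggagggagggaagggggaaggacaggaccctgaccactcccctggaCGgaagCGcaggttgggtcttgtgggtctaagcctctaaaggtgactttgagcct
Gab1 promoter, chr8:80880470-80880769, minus strand: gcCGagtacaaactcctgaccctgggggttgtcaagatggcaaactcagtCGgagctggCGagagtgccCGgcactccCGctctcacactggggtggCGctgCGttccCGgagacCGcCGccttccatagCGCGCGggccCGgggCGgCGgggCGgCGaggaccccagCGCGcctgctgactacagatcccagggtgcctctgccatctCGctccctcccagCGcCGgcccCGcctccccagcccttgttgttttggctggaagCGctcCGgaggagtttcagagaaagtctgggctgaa
The Slc38a4 window held 5 CG pairs, fewer than the median of 7 over the 32851 windows of the table, and 62.0% of all windows held at least as many. The Sfmbt2 window held 9, reached by 45.8% of windows, and a second Sfmbt2 window further into the gene held 16, reached by 33.0%. The Gab1 window held 26, reached by 16.9% of windows. At least 1 CG was present in 94.6% of windows. No methylation or histone mark was measured on these arrays.

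Values are log2 RMA signals, so a difference of 1 is 1 doubling. A difference was called where the Benjamini-Hochberg adjusted p of limma's moderated test, over all genes or over all probe sets, was below 0.05. A probe set below 5.44, the median of all values, is termed dim here, and no fold is given where a group mean was dim. Array medians lay between 5.39 and 5.47. Arrays of one group correlated at 0.991 to 0.995, PSC with ESC at 0.978 to 0.986, and EB_PSC with either at 0.925 to 0.943. The pluripotency factors Pou5f1, Nanog and Sox2, which define undifferentiated cells, averaged 11.70, 11.43 and 12.39 in PSC, and 12.31, 11.75 and 12.65 in ESC. In EB_PSC they averaged 9.56, 9.51 and 11.32, and all 14 pluripotency markers were called lower there than in PSC. Of these 14, 4 were called lower and 2 higher in PSC than in ESC by limma, with a median difference of -0.29. The lower ones included Zfp42 (-2.73, adjusted p = 1.07e-08) and Pou5f1 (-0.61, adjusted p = 0.00479). PSC and ESC therefore also differed in pluripotency markers. Between PSC and ESC 3782 genes were called, and 2490 without PSC 1. That was 20.8% of the genes tested, with 9.07% higher and 11.7% lower in PSC. Between EB_PSC and PSC 43.9% were called, with 18.8% higher and 25.2% lower in EB_PSC. Between EB_PSC and ESC 44.9% were called, with 19.3% higher and 25.6% lower in EB_PSC. The split depended on scaling in every comparison. For embryoid bodies, 3417 higher and 4578 lower against PSC became 4185 and 3566 after cyclic loess. Against ESC, 3513 and 4652 became 4435 and 3626. For PSC minus ESC, the main fit had 1651 positive and 2131 negative calls. Renewed quantile normalization turned these to 2026 and 1870, and cyclic loess to 1974 and 1933. Over all 45101 probe sets 15.6% were called between PSC and ESC (7.05% higher, 8.5% lower). The same share was 34.5% between EB_PSC and PSC (15.7% higher, 18.8% lower) and 35.9% between EB_PSC and ESC (16.4% higher, 19.4% lower). The comparisons share arrays pairwise and are not independent.

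The 4 genes did not move as a block. In PSC, Slc38a4 and Sfmbt2 were higher than in ESC, Smoc1 was lower, and Gab1 was not called. From PSC to embryoid bodies, Slc38a4 rose and the other 3 genes fell. Slc38a4 was highest in embryoid bodies, Sfmbt2 in PSC and Smoc1 in ESC, and the group with the most Gab1 depended on the probe set, as the plot of member probe sets on every array shows.

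**Figure D1:**
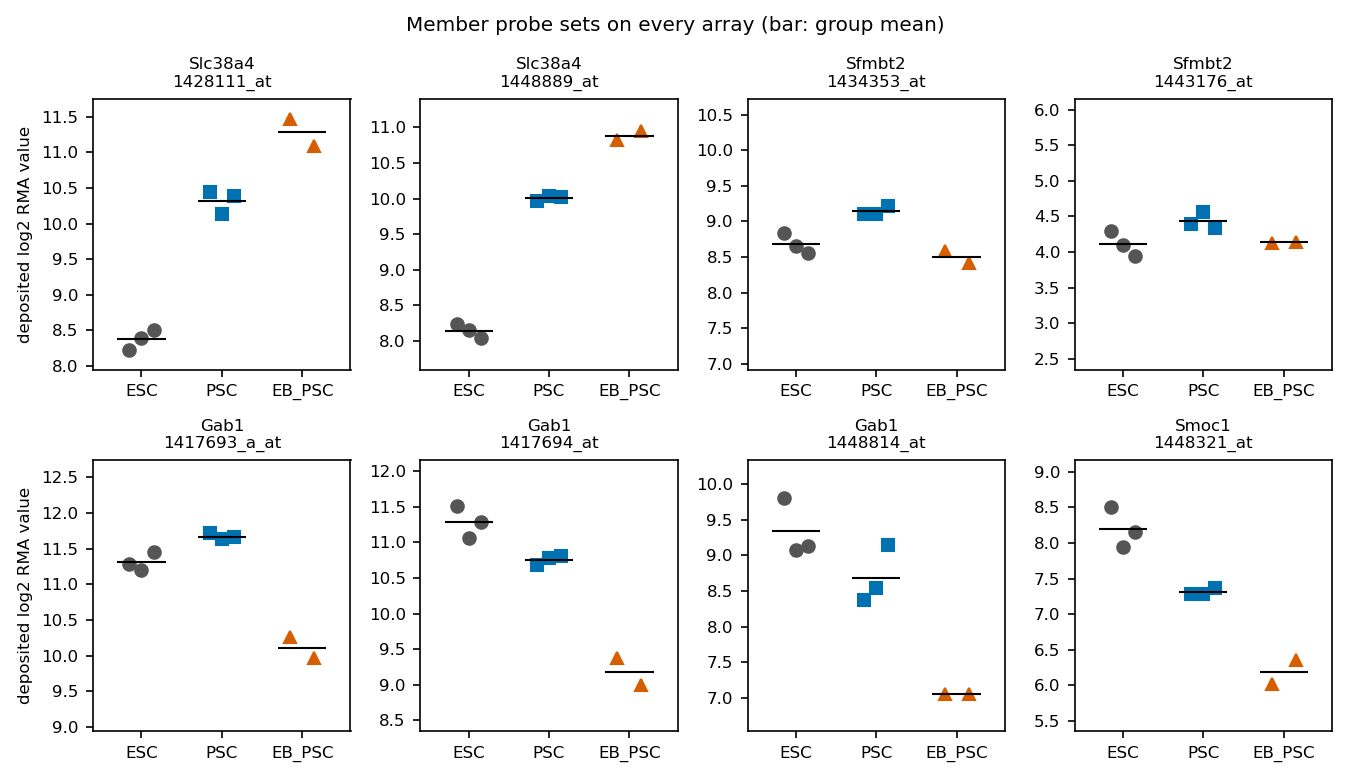
Deposited log2 RMA values of the 8 member probe sets in ESC, PSC and EB_PSC, 1 point for each array, with a bar at the group mean; each panel spans the same range of log2 units. Slc38a4 climbs from ESC to PSC to EB_PSC on both probe sets, and Smoc1 falls along the same order.

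Slc38a4, the amino acid transporter, had the largest difference of the 4 genes between PSC and ESC. Its brighter probe set, 1428111_at, read 10.44, 10.14 and 10.38 on the PSC arrays and 8.23, 8.39 and 8.51 on the ESC arrays. In the embryoid bodies it read 11.47 and 11.09. Every PSC array was above every ESC array, and both EB_PSC arrays were above every PSC array. The group means were 8.38 ± 0.14 in ESC (SD, n = 3), 10.32 ± 0.16 in PSC (SD, n = 3) and 11.28 ± 0.27 in EB_PSC (SD, n = 2). PSC exceeded ESC by 1.94 ± 0.14 (SE), which is 3.85-fold, with a 95% confidence interval of 1.65 to 2.24 and an adjusted p of 8.02e-07 in limma. This was rank 32 among all 18194 genes, ordered from the largest PSC excess. EB_PSC exceeded PSC by a further 0.96 ± 0.15 (SE), or 1.94-fold (adjusted p = 0.00016 in limma), and exceeded ESC by 2.90 ± 0.15 (SE), or 7.48-fold (adjusted p = 4.16e-09). The order of levels was therefore EB_PSC above PSC above ESC, with each step beyond the spread between arrays.

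The other Slc38a4 probe set gave the same order. Probe set 1448889_at read 9.96, 10.03 and 10.02 in PSC, 8.24, 8.15 and 8.05 in ESC, and 10.82 and 10.95 in EB_PSC. No groups overlapped. Its differences were 1.85 ± 0.11 (SE) for PSC over ESC (adjusted p = 5.85e-07 over all probe sets in limma), 0.88 ± 0.12 for EB_PSC over PSC (9.74e-05) and 2.74 ± 0.12 for EB_PSC over ESC (4.28e-09).

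Markers of other cells were measured on the same arrays, since Slc38a4 is also a gene of placenta, visceral endoderm and liver. The summed linear level of 11 measured trophoblast markers was 1128 to 1424 in ESC, 1715 to 2346 in PSC and 2231 to 2667 in EB_PSC. The sums in PSC were above those in ESC, as Slc38a4 was, while those in PSC and EB_PSC overlapped. Of these 11 markers, 2 were called higher in PSC than in ESC and none lower. They were Ascl2, itself a maternally expressed imprinted gene (1.23 ± 0.15 SE, adjusted p = 0.000115), and Tfap2c (0.67 ± 0.21 SE, adjusted p = 0.0359). The Tfap2c call was lost without PSC 1, PSC 3, ESC 1 or ESC 3, and none of its 3 probe sets was called over all probe sets. At an unadjusted p below 0.05, 3 of the markers were higher and 1 was lower in limma. From PSC to EB_PSC, where Slc38a4 rose, 6 of the 11 were called higher and 2 lower in limma. Over all genes those shares were 18.8% and 25.2%. Plac1 rose by 5.11 (adjusted p = 7.1e-11) and Eomes by 3.37 (7.15e-09). Ascl2 fell by 1.25 ± 0.17 (SE, adjusted p = 4.74e-05) and Tfap2c fell by 2.37 ± 0.23 (adjusted p = 2.1e-06). Trophoblast markers with a dim group mean numbered 7 in ESC, 5 in PSC and 4 in EB_PSC. The summed level of 19 visceral and parietal endoderm markers was 1105 to 1187 in PSC and 1175 to 1343 in ESC, and the ranges overlapped. Of the 19, Amn was called higher in PSC, and Dab2 and Col4a1 lower. Amn, a gene of the visceral endoderm that encodes a partner of the receptor cubilin, was higher by 1.72 ± 0.15 (SE, adjusted p = 5.89e-06 in limma), a call kept in all 18 alternatives. It fell by 1.25 ± 0.17 (adjusted p = 4.19e-05) from PSC to EB_PSC. In EB_PSC that sum was 8520 to 10634, and 12 of the 19 were called higher than in PSC. All 5 measured hepatocyte markers were dim in every group, with a summed level of 128 to 159. The part of trophoblast and endoderm cells in the Slc38a4 levels was not tested. In these bulk samples, more cells of a type and more RNA per cell cannot be told apart.

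Sfmbt2, the Polycomb group gene, was highest in PSC. Its bright probe set, 1434353_at, read 9.11, 9.10 and 9.22 in PSC, 8.84, 8.65 and 8.55 in ESC, and 8.59 and 8.42 in EB_PSC. All 3 PSC arrays were above all other arrays, while the ESC and EB_PSC arrays overlapped. PSC exceeded ESC by 0.46 ± 0.12 (SE), or 1.38-fold, with a 95% confidence interval of 0.21 to 0.72 and an adjusted p of 0.013 in limma. This call was lost without PSC 3 (0.42, adjusted p = 0.0524) or without ESC 3 (0.40, adjusted p = 0.0647). EB_PSC was lower than PSC by 1.55-fold, a difference of -0.64 ± 0.13 (SE, adjusted p = 0.00129 in limma). EB_PSC and ESC differed by -0.17 ± 0.13 (SE), with an interval of -0.46 to 0.11 and an adjusted p of 0.327 in limma. That last difference turned to 0.09 after cyclic loess. The second probe set, 1443176_at, was dim, at 3.94 to 4.56 on all 8 arrays, and was called in none of the 3 comparisons (adjusted p of 0.106 to 0.928 over all probe sets in limma).

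Gab1, the docking protein gene, was lowest in embryoid bodies on all of its probe sets, but its probe sets disagreed on PSC against ESC. The brightest, 1417693_a_at, read 11.72, 11.63 and 11.66 in PSC, 11.28, 11.20 and 11.45 in ESC, and 10.26 and 9.96 in EB_PSC. No groups overlapped on it. Yet PSC over ESC was 0.36 ± 0.12 (SE), with a 95% confidence interval of 0.10 to 0.62, and missed the threshold over all genes (adjusted p = 0.0514 in limma). It passed under 7 of 18 alternatives, with adjusted p of 0.0121 to 0.0407.

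Probe set 1417694_at ran the other way. It read 10.68, 10.78 and 10.81 in PSC, 11.51, 11.06 and 11.28 in ESC, and 9.37 and 8.99 in EB_PSC. Here every PSC array was below every ESC array, and PSC minus ESC was -0.53 ± 0.14 (SE, adjusted p = 0.025 over all probe sets in limma). Leaving out PSC 1, PSC 2, PSC 3, ESC 1 or ESC 3 ended that call, with adjusted p of 0.0532 to 0.0998. The third probe set, 1448814_at, read 8.37, 8.55 and 9.15 in PSC, 9.81, 9.08 and 9.13 in ESC, and 7.06 on both EB_PSC arrays. Its PSC and ESC arrays overlapped, and the difference of -0.65 ± 0.22 (SE) was not called (adjusted p = 0.0624). It was called without PSC 3 (-0.88, adjusted p = 0.017) or without ESC 2 (-0.78, adjusted p = 0.0399). The mean over the 3 probe sets gave -0.27 for the gene (adjusted p = 0.164 in limma), so the direction of Gab1 between PSC and ESC depended on the probe set.

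The disagreement can also be written within each array, as the value of 1417693_a_at minus that of 1417694_at. This gap was 1.05, 0.84 and 0.84 in PSC, 0.90 and 0.97 in EB_PSC, and -0.23, 0.14 and 0.17 in ESC. All 3 PSC arrays were above all 3 ESC arrays. This separation follows from the opposite order of PSC and ESC on these probe sets and adds nothing to it. Both EB_PSC arrays were also above all 3 ESC arrays. The mean gap in PSC exceeded that in ESC by 0.88, which is given without a test because the gap was looked at for the opposite directions of these probe sets. Against 1448814_at the gap averaged 2.98 ± 0.43 on the PSC arrays (SD, n = 3) and 1.97 ± 0.45 on the ESC arrays (SD, n = 3). The suffix of 1417693_a_at marks probes that match more than 1 transcript of the gene. The 3′ minus 5′ signal of the control transcript Gapdh was -0.06 to 0.00 in PSC, -0.09 to -0.06 in EB_PSC and 0.08 to 0.17 in ESC, with ESC apart. That of Actb was 1.04 to 1.54 in PSC and 0.69 to 1.13 in ESC, which overlapped. The parts of RNA quality and of the cell line in the Gab1 gap were not tested.

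In embryoid bodies the 3 Gab1 probe sets agreed. EB_PSC was below PSC by -1.56 ± 0.14 (SE) on 1417693_a_at, or 2.94-fold (adjusted p = 6.64e-07 over genes in limma). The corresponding differences were -1.58 ± 0.16 on 1417694_at (adjusted p = 7.15e-06 over all probe sets) and -1.63 ± 0.24 on 1448814_at (0.000183). Against ESC the differences were -1.20 ± 0.14 (adjusted p = 6.9e-06), -2.11 ± 0.16 (4.94e-07) and -2.28 ± 0.24 (9.88e-06). Of all genes, 2.28% fell at least as far as Gab1 from PSC to EB_PSC.

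Smoc1, the secreted BMP antagonist, was highest in ESC and lowest in embryoid bodies. Its single probe set, 1448321_at, read 8.50, 7.95 and 8.15 in ESC, 7.28, 7.28 and 7.37 in PSC, and 6.02 and 6.36 in EB_PSC. No groups overlapped. PSC minus ESC was -0.89 ± 0.15 (SE), so that PSC was 1.86-fold lower, with a 95% confidence interval of -1.21 to -0.57 and an adjusted p of 0.000834 in limma. EB_PSC was lower than PSC by 2.17-fold, at -1.12 ± 0.16 (SE, adjusted p = 8.06e-05), and lower than ESC by 4.03-fold, at -2.01 ± 0.16 (adjusted p = 3.16e-07). The order was ESC above PSC above EB_PSC, the reverse of that of Slc38a4.

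ESC were the only group labelled as grown on feeder cells, and fibroblast markers moved with the Smoc1 difference between PSC and ESC. Of 16 measured fibroblast and feeder markers, 10 were called lower in PSC than in ESC and none higher in limma (11 and 0 at an unadjusted p below 0.05), with a median difference of -0.66. Their summed linear level was 1196 to 1334 in PSC and 2069 to 2600 in ESC, and 7 of the 16 were dim in PSC and 4 in ESC. In EB_PSC, where Smoc1 was lowest, that sum was 32242 to 36401. The part of feeder cells in the ESC level of Smoc1 was not tested. The falls of Sfmbt2, Gab1 and Smoc1 in embryoid bodies went with a summed level of pluripotency markers of 18524 to 19232, against 50130 to 54992 in PSC. Cardiomyocyte markers rose there in 11 of 12 cases, and their part in those falls was not tested.

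**Figure D2:**
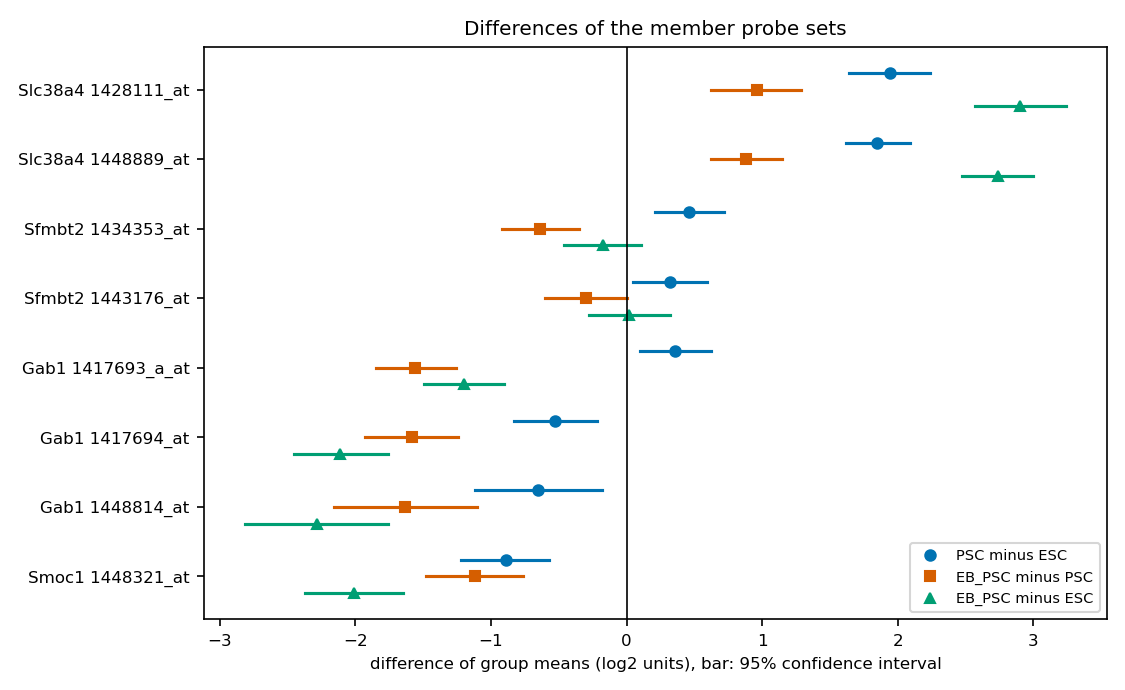
Differences between group means of the 8 member probe sets in log2 units, with 95% confidence intervals from the limma fit over all probe sets. All 3 differences of Slc38a4 lie above 0 and all 3 of Smoc1 below it, while PSC minus ESC lies above 0 on 1 Gab1 probe set and below 0 on the other 2.

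Counted over the 4 genes, 2 were called higher and 1 lower in PSC than in ESC. Against PSC, 1 was called higher and 3 lower in EB_PSC, and against ESC 1 higher and 2 lower. Over all genes the share called in those comparisons was 20.8%, 43.9% and 44.9%. The median difference of the 4 genes was 0.41, -0.88 and -0.69, and that of all genes was 0.01, -0.09 and -0.07.

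Imprinted genes with germline DNA methylation marks were measured in the same cells. Of 23 measured paternally expressed genes, 14 were called lower in PSC than in ESC and none higher in limma (15 and 0 at an unadjusted p below 0.05), with a median of -0.86. Peg3, a zinc finger gene, averaged 5.71 in PSC and 10.29 in ESC, and Mest averaged 6.41 and 10.89. Of 19 maternally expressed genes, 7 were called higher in PSC and 2 lower, with a median of 0.22. Grb10, an adaptor that restrains insulin receptor signalling, led these with 2.64 ± 0.13 (SE, adjusted p = 1.72e-08 in limma). In this comparison Slc38a4 and Sfmbt2 lay above 0 and Smoc1 below, while the direction of Gab1 depended on the probe set. No test between the groups of imprinted genes was made.

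Of 4 further genes reported under oocyte H3K27me3, Xist and Jade1 had a probe set. Jade1, a subunit of histone acetyltransferase complexes, read 11.95, 11.83 and 11.79 in PSC, 11.66, 11.59 and 11.66 in ESC, and 10.47 and 10.23 in EB_PSC. Its PSC minus ESC difference was 0.22 ± 0.11 (SE, adjusted p = 0.206 in limma), 1 of its 4 probe sets was called lower, and with their mean it turned to -0.09. It fell by 1.51 ± 0.13 (SE) from PSC to EB_PSC (adjusted p = 4.53e-07), on 4 of its 4 probe sets. Xist, the non-coding RNA of X inactivation, was lower in PSC than in ESC by 1.41 ± 0.19 (SE, adjusted p = 0.000193). It was also lower in EB_PSC than in PSC by 0.83 ± 0.21 (adjusted p = 0.00607). Both Xist calls rested on 1 probe set whose suffix marks possible cross-hybridisation, and without such probe sets neither held.

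**Figure D3:**
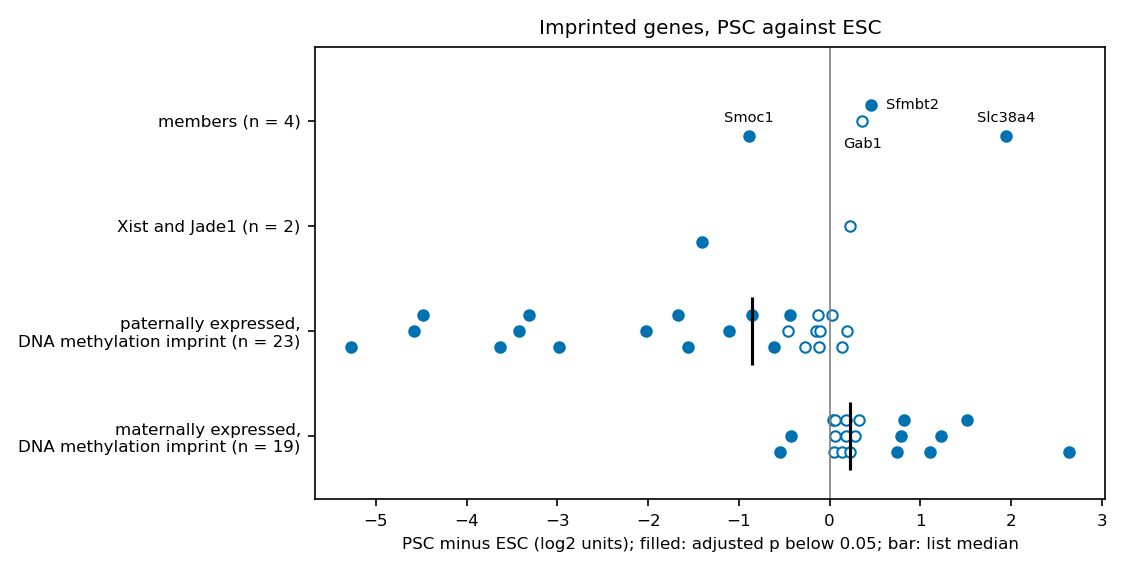
PSC minus ESC differences in log2 units of the 4 members, of Xist and Jade1, and of imprinted genes with germline DNA methylation marks, 1 point for each gene; filled points had an adjusted p below 0.05 and bars mark list medians. The paternally expressed genes spread to the left, with a median of -0.86, while Slc38a4 stands at 1.94 on the right.

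The relatives of each member were taken from lists by family. Over all genes, 9.07% were called higher and 11.7% lower in PSC than in ESC. From PSC to EB_PSC those shares were 18.8% and 25.2%. The counts of this and the following lists are to be read beside them. Slc38a4 belongs to the SLC38 family of neutral amino acid transporters, of which 9 of 11 genes were measured. In PSC against ESC it was the single gene of the family called, which is 11.1% of the 9. At an unadjusted p below 0.05 in limma, 3 of the 9 were higher and 2 lower. The neighbouring family members Slc38a1 and Slc38a2 differed by 0.32 ± 0.11 (adjusted p = 0.0593) and -0.27 ± 0.11 (SE, adjusted p = 0.111). Under 6 of 18 alternatives, 2 to 4 genes of the family were called. From PSC to EB_PSC, 4 of the 9 rose and 2 fell. Both falls, of Slc38a3 (adjusted p = 0.0459) and Slc38a7 (0.0494), were lost in 12 of 18 alternatives each, among them without any 1 of the PSC or EB_PSC arrays or without ESC 3. Besides Slc38a4 the genes that rose included the glutamine transporter gene Slc38a5, which rose by 0.85 ± 0.12 (SE, adjusted p = 5.18e-05) from a dim level, and Slc38a6, which rose by 0.65 ± 0.15 (adjusted p = 0.0032). Slc38a1 rose by 0.60 ± 0.12 (adjusted p = 0.00129) on its brighter probe set, while its other probe set was called lower and the mean of both gave -0.13.

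Sfmbt2 was set beside other MBT repeat proteins and Yy1, the DNA-binding partner with which SFMBT proteins form the complex PhoRC. Of 9 measured genes, 3 were called higher in PSC than in ESC and 1 lower. This count of 4 fell to 2 without PSC 2 and to 1 without PSC 3. Yy1 read 11.98, 11.72 and 11.84 in PSC and 11.31, 10.88 and 11.29 in ESC, with no overlap. Its difference was 0.69 ± 0.13 (SE, adjusted p = 0.00275 in limma), and 2 of its 4 probe sets were called higher and none lower. Sfmbt1, the paralog of Sfmbt2, differed by 0.35 ± 0.14 (adjusted p = 0.0968). In EB_PSC against PSC, 1 gene of the list rose and 4 fell. L3mbtl3 rose by 2.53 ± 0.18 (SE, adjusted p = 7.31e-08), while L3mbtl2, a subunit of a variant PRC1 complex, fell by 1.46 ± 0.16 (adjusted p = 7.01e-06). Yy1 differed by -0.29 ± 0.15 (adjusted p = 0.143), although 1 of its other probe sets was called higher.

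PRC2, the enzyme complex behind the mark, was also on the array. Of 13 measured genes of PRC2 and its cofactors, 1 was called higher and 2 lower in PSC than in ESC, and with array weights 6 were called in all. The shares of 7.69% and 15.4% were near the 9.07% and 11.7% of all genes. The catalytic subunit Ezh2 differed by -0.14 ± 0.11 (SE, adjusted p = 0.419). The cofactor gene Epop was lower in PSC by 1.62 ± 0.21 (adjusted p = 0.000123). From PSC to EB_PSC, 8 of the 13 fell and none rose in limma (9 and 0 at an unadjusted p below 0.05), with a median of -0.72. Jarid2 fell by 1.52 ± 0.12 (SE, adjusted p = 2.54e-07) and Ezh2 by 0.92 ± 0.12 (adjusted p = 3.02e-05). Of 13 genes of H3K27 demethylation and of the silencing of such imprints, 1 was higher and 2 were lower in PSC than in ESC, and 1 was called without PSC 2, PSC 3 or ESC 1. These shares were again 7.69% and 15.4%, near those of all genes. The lower genes included Ehmt2, which encodes the H3K9 methyltransferase G9a, at -1.17 ± 0.16 (SE, adjusted p = 0.00019). Of 17 genes of PRC1, the complex that binds H3K27me3, 2 were higher and 2 lower in PSC than in ESC, at 11.8% each. In EB_PSC against PSC 7 rose and 6 fell, or 41.2% and 35.3%, against 18.8% and 25.2% of all genes.

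Gab1 was set beside its paralogs and signalling partners, of which 16 of 19 genes were measured. Between PSC and ESC 1 was called higher and 2 lower, or 6.25% and 12.5%, near the 9.07% and 11.7% of all genes. Without PSC 1, PSC 2 or ESC 3 a single gene was called, and with array weights 7. Pik3ca, the catalytic subunit of phosphoinositide 3-kinase, was lower in PSC by 1.01 ± 0.11 (SE, adjusted p = 3.06e-05 in limma), on 1 of its 6 probe sets. From PSC to EB_PSC, 8 of the 16 rose and 3 fell. The docking protein genes Irs1 and Gab2 rose while Gab1 fell. Irs1 read 5.83, 6.00 and 5.85 in PSC and 10.03 and 9.88 in EB_PSC, a rise of 4.06 ± 0.13 (SE, adjusted p = 3.01e-11). Gab2 read 5.19, 5.67 and 5.39 in PSC and 8.94 and 8.54 in EB_PSC, a rise of 3.32 ± 0.17 (adjusted p = 4.09e-09) on 1 of its 3 probe sets.

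Of 14 receptors and ligands that signal through Gab1, 7 rose and 1 fell from PSC to EB_PSC. The stem cell factor gene Kitl rose by 5.09 ± 0.16 (SE, adjusted p = 3.53e-11 in limma) and Pdgfrb by 5.03 ± 0.23 (1.02e-09). Met, the receptor of hepatocyte growth factor, rose by 2.90 ± 0.12 (adjusted p = 4.59e-10) from a dim level, and Kit fell by 1.65 ± 0.15 (1.03e-06). Pdgfrb is also a fibroblast marker of the list above. Between PSC and ESC 2 were called higher and 4 lower, and the count of 6 fell to 2 without PSC 2 or PSC 3 and to 3 without ESC 1 or when probe sets of a gene were averaged. The growth factor receptor gene Igf1r was higher in PSC by 0.73 ± 0.13 (SE, adjusted p = 0.00114) and held its call in all 18 alternatives.

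All 8 genes of the SPARC family, the matricellular proteins that include Smoc1, were measured. Between PSC and ESC 2 were called higher and 2 lower. The count of 4 fell to 1 without PSC 1, PSC 2 or ESC 3 and to 2 without PSC 3 or ESC 2. The closest paralog, Smoc2, was dim in all groups and differed by -0.08 ± 0.13 (SE, adjusted p = 0.74). In embryoid bodies against PSC, 3 genes rose and 3 fell. Sparc, a collagen-binding matrix protein, rose by 1.30 ± 0.19 (SE, adjusted p = 7.3e-05), Fstl1 by 2.07 ± 0.13 (3.81e-08) and Sparcl1 by 2.87 ± 0.26 from a dim level (1.06e-06). Smoc1, the proteoglycan gene Spock2 (-1.22 ± 0.15, adjusted p = 1.4e-05) and Spock3 fell. Spock3 was dim in both groups, and its call was lost in 5 of 17 alternatives. Among them were leaving out PSC 2, EB_PSC 1 or EB_PSC 2 and leaving out probe sets whose suffix marks possible cross-hybridisation.

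The BMP pathway, on which SMOC1 protein acts, was also measured, with 22 of 23 genes. Between PSC and ESC 3 were called higher and 5 lower, and the count of 8 fell to 5 without PSC 2. Bmp4 and its target Id1 were among the genes lower in PSC, as Smoc1 was, while Id2 was among those called higher. Bmp4 differed by -1.60 ± 0.17 (SE, adjusted p = 2.95e-05) and Id1 by -1.99 ± 0.18 (6.76e-06). Id2 differed by 0.59 (adjusted p = 0.00665 in limma), a call lost with the mean of its probe sets. From PSC to EB_PSC, 14 genes of the list rose and none fell in limma (14 and 1 at an unadjusted p below 0.05), with a median of 1.11, while Smoc1 fell. Bmp2 rose by 5.59 ± 0.18 (SE, adjusted p = 4.79e-11) from a dim level, and Id1 by 3.08 ± 0.20 (3.54e-08). Fst, a secreted antagonist of activins and BMPs, rose by 4.29 ± 0.20 (adjusted p = 1.23e-09) from a dim level.

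**Figure D4:**
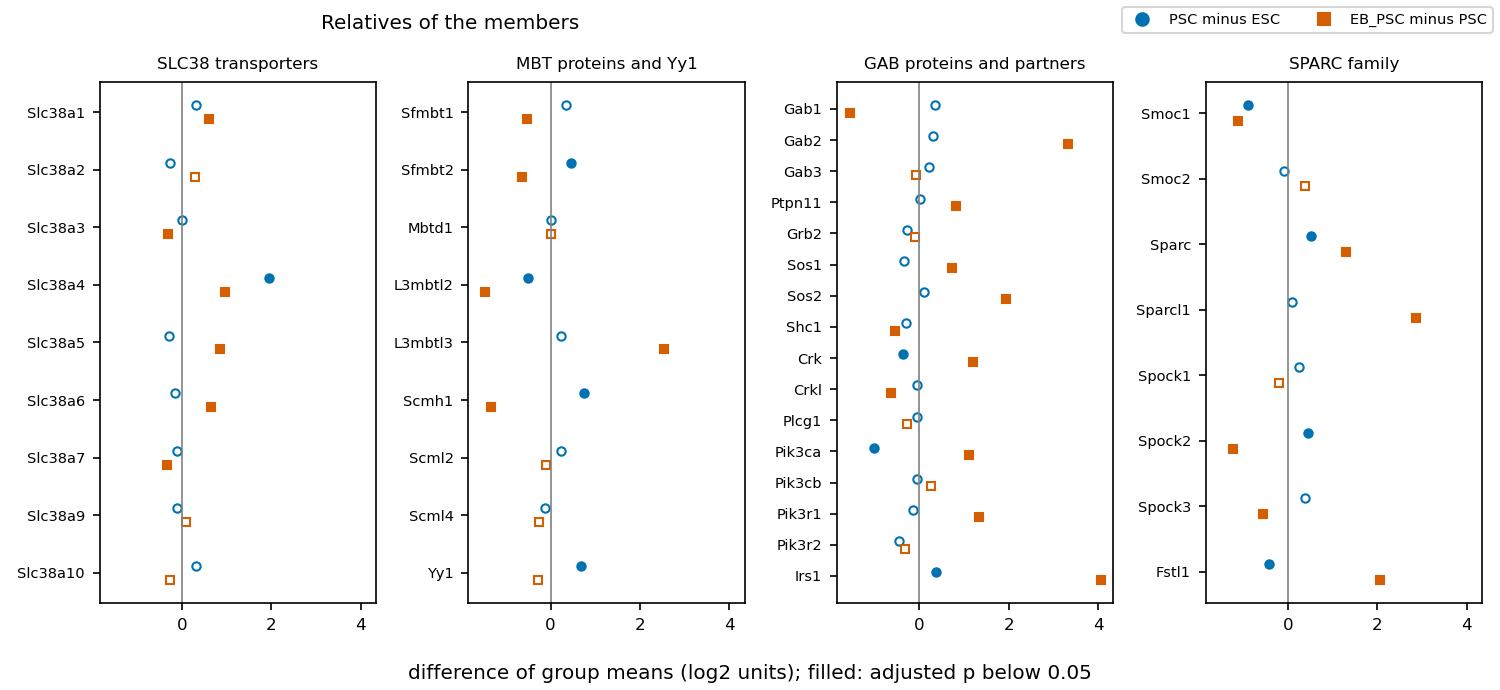
Differences in log2 units of the measured relatives of the 4 members, PSC minus ESC as circles and EB_PSC minus PSC as squares; filled symbols had an adjusted p below 0.05. In the SLC38 panel the filled circle is Slc38a4 at 1.94, and in the GAB panel Gab1 is at -1.56 while Irs1 is at 4.06.

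The 5 measured genes on each side of every member, in RefSeq order, were compared in the same fit. Beside Slc38a4, on chromosome 15, none of the 10 neighbours was called between PSC and ESC by limma, 2 had an unadjusted p below 0.05, and their differences ran from -0.27 to 0.32. Those 2 extremes were the paralogs Slc38a2 and Slc38a1. Beside Sfmbt2, on chromosome 2, 1 of 10 was called, the adjacent long non-coding RNA gene Gm13261. It read 8.45, 8.57 and 8.31 in PSC, 7.11, 8.10 and 7.62 in ESC, and 6.30 and 5.33 in EB_PSC. Its levels thus had their maximum in PSC, as those of Sfmbt2 did, with no overlap between groups. PSC exceeded ESC by 0.84 (adjusted p = 0.0286 in limma), a call lost without any 1 of the PSC arrays or without ESC 1 or ESC 3 (adjusted p up to 0.123). EB_PSC was lower than PSC by 2.63 log2 units (adjusted p = 4.07e-06), and that call held in all 18 alternatives.

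Beside Gab1, on chromosome 8, 2 of 10 neighbours were called, both lower in PSC. Usp38, a deubiquitinase gene, differed by -0.54 (adjusted p = 0.00816), and Abce1, a ribosome recycling factor, by -0.39 (adjusted p = 0.0235). The Abce1 call was lost without PSC 1, PSC 2, ESC 1 or ESC 3, and under 3 other alternatives. Beside Smoc1, on chromosome 12, 1 of 10 was called, the outer mitochondrial membrane gene Synj2bp. It was higher in PSC by 1.03 (adjusted p = 8.17e-05), against the direction of Smoc1. In EB_PSC against PSC, 5 of 10 neighbours of Slc38a4 were called, 6 of Sfmbt2, 5 of Gab1 and 1 of Smoc1. The share called over all genes was 43.9% in that comparison and 20.8% between PSC and ESC.

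**Figure D5:**
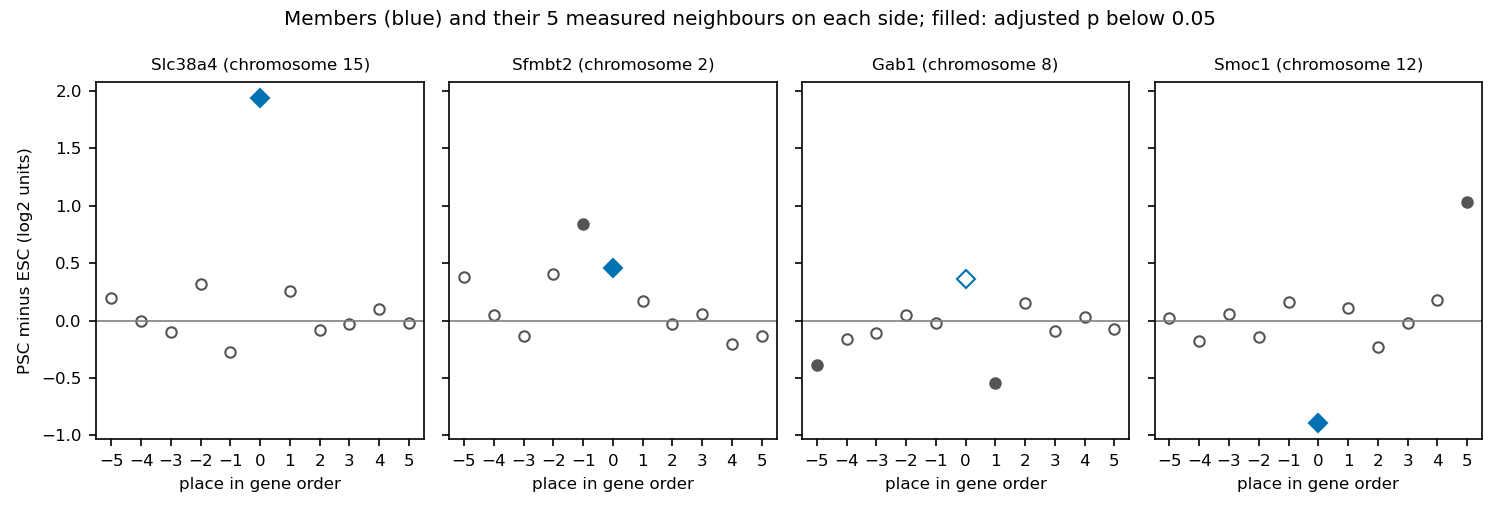
PSC minus ESC differences in log2 units of each member, as a diamond at place 0, and of the 5 measured genes on each side in RefSeq order; filled symbols had an adjusted p below 0.05. Slc38a4 stands at 1.94 among neighbours between -0.27 and 0.32, and the filled neighbour next to Sfmbt2 is Gm13261 at 0.84.

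The genes most like each member over the 8 arrays were taken by Pearson's r, among genes whose group means spanned at least 50% of the span of the member. These are the highest values of many, over arrays that share a group structure, and carry no p. For Slc38a4, 2088 genes were compared, and AI662270 (0.993), the Rag GTPase gene Rragd (0.992) and Ankrd12 (0.989) came first. AI662270 averaged 3.69 in ESC, 7.26 in PSC and 9.66 in EB_PSC. For Sfmbt2, Stmn2 and Prph, genes of the neuronal cytoskeleton, reached 0.986 each and Rbm28 0.98, of 11425 genes compared. For Gab1, the DNA repair gene Mutyh, the DNA damage checkpoint gene Mdc1 and the cohesin protector gene Sgo1 reached 0.996 each, of 5670 compared. Mutyh averaged 8.23 in ESC, 8.49 in PSC and 6.97 in EB_PSC. For Smoc1, B4galnt4 (0.996), the clathrin light chain gene Cltb (0.995) and the immediate early gene Nr4a1 (0.995) came first, of 4003 compared. Nr4a1 averaged 9.44 in ESC, 8.82 in PSC and 7.81 in EB_PSC.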

How the data were processed

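Total RNA was biotin-labelled and hybridised to 8 arrays. The deposited values are log2 signals that the authors made with RMA, per the submitters' processing notes. Settings of RMA are not stated, and scanner signals were not used. Of 45101 probe sets, 34958 had 1 gene symbol, 932 several and 9211 none, and 34754 of the first kind matched RefSeq by Entrez identifier. A gene stood for by several probe sets took the one with the highest mean over all arrays. Group differences were fitted with limma 3.58.1 in R 4.3.3, with lmFit and eBayes, 1 fit of all 8 arrays with group as the single term, once over 18194 genes and once over all probe sets, with Benjamini-Hochberg adjustment and two-sided tests (5 residual and 8.07 prior degrees of freedom). The fit was tested on simulated arrays with independent noise and few changed genes. For PSC minus ESC, true changes of 0.5, 1 and 2 were called in 19%, 88% and 98% of cases. For EB_PSC minus PSC the shares were 10%, 67% and 97%, and for EB_PSC minus ESC 19%, 79% and 98%. Unchanged genes called numbered 9, 7 and 1 in that order of comparisons. Technical repeats were not simulated. The number of arrays limits the precision. Replicate numbers were not used to pair arrays in this fit. The deviations of same-numbered PSC and ESC arrays correlated at -0.25, -0.07 and -0.04. Those of PSC and EB_PSC correlated at -0.14 and 0.04, and those of ESC and EB_PSC at 0.16 and 0.22. Whether arrays were paired cannot be decided this way, because deviations within so few arrays constrain one another.

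Named genes were the members, up to 4 called genes of each list by size, any gene of the 4 lists of relatives, the 5 measured neighbours on each side, and the 3 genes most like each member. Ezh2 and Kit were added after their values were seen. The 19 lists held 268 genes, of which 240 were measured. The members and lists were chosen with earlier results of these data known. Alternatives covered normalization, dim probe sets, the probe set for a gene, the features and arrays in the fit, the variance prior, weights, a replicate block and each array left out. Tables were made with Python 3.11.15, pandas 2.3.3, NumPy 2.4.6, SciPy 1.17.1 and Matplotlib 3.10.9.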

Additional observations from a re-analysis of the deposited data

How the results depend on the processing

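Slc38a4 and Smoc1 kept their direction and their side of the threshold in all 3 comparisons under all 18 alternatives run, as did Gab1 in both embryoid body comparisons and Sfmbt2 in EB_PSC against PSC. Sfmbt2 in PSC against ESC ranged from 0.40 to 0.54 with 1 array left out and was not called without PSC 3 (0.42) or ESC 3 (0.40). In EB_PSC against ESC it turned to 0.09 after cyclic loess. Gab1 in PSC against ESC, at 0.36, was called after renewed quantile normalization (0.43), cyclic loess (0.45), the filter on dim probe sets (0.36), with the compared groups alone (0.36) and with a trended and robust prior (0.36), and turned to -0.27 with the mean of all probe sets. With 1 array left out it ranged from 0.30 to 0.43, and it was called without either EB_PSC array (0.36). The dim Sfmbt2 probe set 1443176_at, at 0.02 in EB_PSC against ESC, turned to -0.02 with quantile normalization and ranged from -0.06 to 0.11 with 1 array left out. With the replicate number as a replicate block it was -0.04, and the block gave 3564, 7517 and 7693 called genes against 3782, 7995 and 8165, with no other change of a member's call. The samples share only a number. Array weights gave 5692 called genes in PSC against ESC, and leaving out 1 array gave 2490 to 4142. Of 969 counts called in the gene lists under the alternatives, 914 stayed within 1.5 times. The causes were not tested. Signal over background limits Sfmbt2 probe set 1443176_at and the dim relatives. With 2 or 3 arrays a group, small differences such as those of Sfmbt2 and Gab1 between PSC and ESC are near the limit of the test.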
